A study of Mus musculus with 8 samples.

Results

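The genes described here are 8 markers of spinal motor columns and motor pools, chosen by name: Foxp1, Aldh1a2, Mecom, Pou3f1, Etv4, Nos1, Ebf2 and Alcam. They are 8 of the 55471 genes in the count table, and all 8 passed the filter on low counts that left 16524 genes for testing. RNA was sequenced from mouse motor neurons differentiated from embryonic stem cells of the HBG3 line, which carries the HB9::GFP reporter, a green fluorescent protein driven by a motor neuron promoter. The cells had been dissociated and then grown for 3 days in N2B27 medium with supplements that included ascorbic acid, BDNF, CNTF and GDNF, and this was the same in all groups. There were 4 groups of 2 libraries. Input was total RNA of these cells, ODD and EVEN were RNA captured with biotinylated antisense probes of 20 nt against the long noncoding RNA Lhx1os, and LacZ was RNA captured with probes against LacZ mRNA, the negative control. Replicate 1 and replicate 2 came from 2 independent experiments, so each group has 1 library per experiment and all libraries come from 1 cell line. The sources used here do not say whether the cells were sorted for the reporter.

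Motor neurons that innervate different body regions lie in columns along the spinal cord, and within the limb columns they form pools that each serve one muscle. Column identity is set by Hox transcription factors, which act with Foxp1 in the neurons that innervate the limbs. Pool identity is set by further transcription factors, some of them induced by factors from the target tissue. The genes below are used to tell columns and pools apart in the embryonic cord.

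The cultures contained more than motor neurons. All 8 genes of a motor neuron list (Mnx1, Isl1, Isl2, Lhx3, Chat, Slc18a3, Slc5a7 and Prph) were detected in every library. Their summed FPKM, the count scaled by gene length and library total, was 82.0 and 271 in the Input libraries of replicates 1 and 2, and 60.1 and 111 without Prph. A list of 6 neural progenitor genes summed to 506 and 312 FPKM, and a list of 5 glial genes to 138 and 40.9 FPKM. The 8 spinal interneuron genes summed to 15.2 and 19.4 FPKM and the 6 mesenchymal and endothelial genes to 23.7 and 17.8. Of 4 genes of pluripotent cells, Pou5f1 and Dppa5a were at 0 in all 8 libraries, Nanog had at most 10 counts (Input replicate 1) and Zfp42 at most 3 (Input replicate 2). In such bulk samples, fewer cells of a type and less RNA per cell cannot be told apart. Total counts were 20515501 to 24628435 in Input and 7632775 to 12563449 in the pull-downs. Lhx1os itself stood at 2.26 and 2.97 CPM (counts scaled by library size, with TMM normalisation) in Input. It stood at 2.06 and 2.43 with LacZ probes, 179.9 and 35.6 with ODD probes, and 149.3 and 25.4 with EVEN probes. Its recovery was thus lower in replicate 2 than in replicate 1 with both probe sets.

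Expressed per gene length, the 8 genes spanned a wide range in Input. Alcam was highest, with 12.6 FPKM in replicate 1 and 18.1 in replicate 2. Foxp1 followed with 7.40 and 12.6 FPKM, Etv4 with 4.21 and 9.47, and Pou3f1 with 4.0 and 8.33. Ebf2 stood at 4.42 and 3.51 FPKM, and Aldh1a2 at 4.2 and 3.32. Mecom, with 1.24 and 0.518 FPKM, and Nos1, with 0.335 and 0.507, were the lowest. By the means of the Input libraries the order was Alcam (15.3), Foxp1 (9.97), Etv4 (6.84), Pou3f1 (6.17), Ebf2 (3.96), Aldh1a2 (3.76), Mecom (0.878) and Nos1 (0.421). The ranges of neighbours overlapped for Foxp1 and Etv4, Etv4 and Pou3f1, Pou3f1 and Ebf2, and Ebf2 and Aldh1a2. They did not overlap for Alcam and Foxp1, Aldh1a2 and Mecom, or Mecom and Nos1. Alcam ranked first in all 8 libraries. Against the 16524 genes tested, Alcam was above 77% in mean Input FPKM, Foxp1 above 66.6%, Mecom above 23.1% and Nos1 above 14.5%.

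Several of the 8 genes were not the most abundant of their families. Pou3f1 was the lowest of the 4 class III POU genes, below Pou3f2 (29.9 ± 2.3 FPKM), Pou3f3 (22.2 ± 1.3) and Pou3f4 (16.9 ± 2.2; SD, n = 2). Etv5 and Etv1, the other ETS genes of the PEA3 group, stood at 15.0 ± 0.60 and 11.6 ± 8.0 FPKM, against 6.84 ± 3.7 for Etv4, and the ranges of Etv1 and Etv4 overlapped. Ebf3 (8.63 ± 0.31), Ebf1 (5.80 ± 0.90) and Ebf4 (4.92 ± 0.30) were each above Ebf2 (3.96 ± 0.64) in both Input libraries. Foxp4 stood at 15.6 ± 6.1 FPKM beside 9.97 ± 3.6 for Foxp1, and their ranges overlapped. Foxp2 was much lower, at 0.505 ± 0.12 FPKM, and Foxp3 was at 0 in Input.

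In the other families the column marker had the highest mean. Aldh1a2, which makes retinoic acid, stood at 3.76 ± 0.62 FPKM, against 0.581 ± 0.22 for Aldh1a3 and 0.0568 ± 0.024 for Aldh1a1. Nos1, the neuronal nitric oxide synthase, was the lowest of the 8 genes at 0.421 ± 0.12 FPKM, yet Nos2 and Nos3 were lower still at 0.0192 ± 0.012 and 0.0413 ± 0.025. The adhesion gene Alcam exceeded its relative Mcam (4.80 ± 1.9 FPKM). Mecom and its paralog Prdm16 (0.631 ± 0.057 FPKM) had overlapping ranges.

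**Figure D1:**
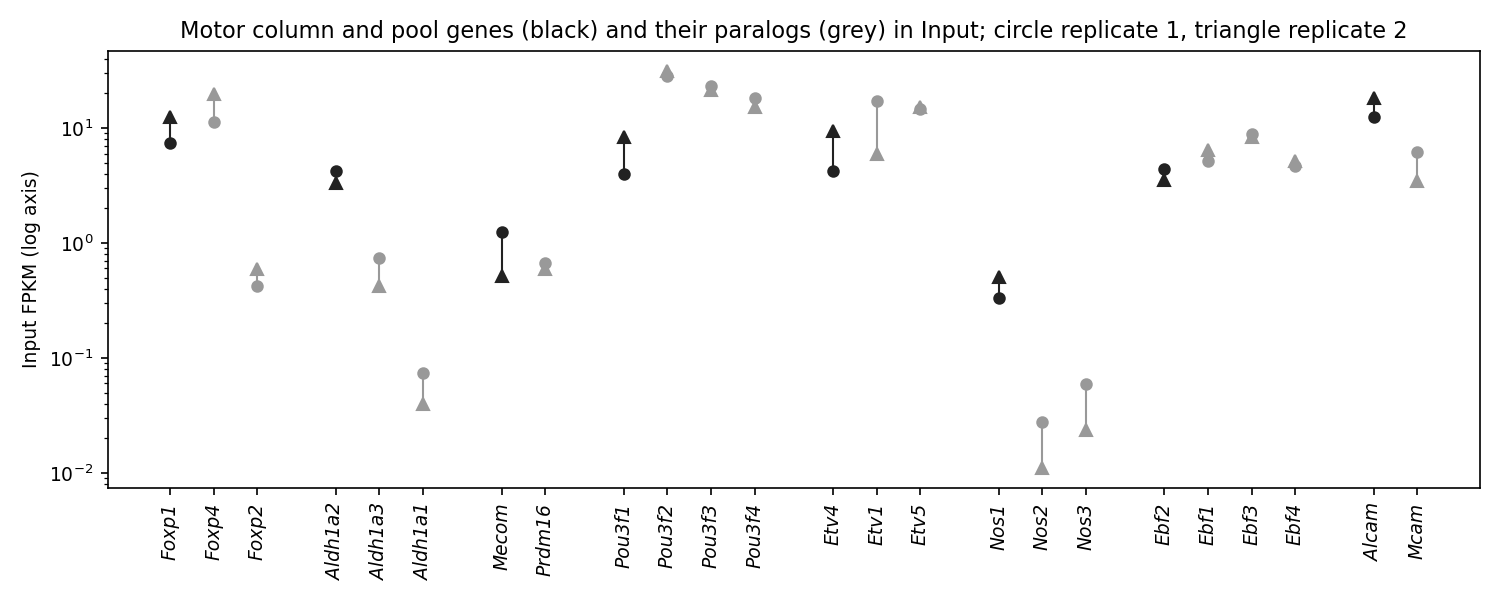
Input FPKM, on a log axis, of the 8 motor column and pool genes (black) and of their paralogs (grey), with a circle for replicate 1, a triangle for replicate 2 and a line joining them. Foxp3, at 0 in both libraries, is not drawn. Pou3f1 lies below its 3 paralogs, while Aldh1a2 and Nos1 lie above theirs.

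The Hox genes that set columnar identity were present at the rostral end of the set. Hoxa5 and Hoxc5, which are expressed at cervical levels, stood at 45.4 ± 4.3 and 17.2 ± 4.0 FPKM in Input. Hoxa6 and Hoxc6, of the brachial region, stood at 1.66 ± 1.0 and 1.62 ± 0.64 FPKM. Hoxc8 was at 0.0717 ± 0.020 FPKM, and Hoxc9, a thoracic gene, at 0 in Input replicate 1 and 0.0602 in replicate 2. The lumbar genes Hoxa10, Hoxc10 and Hoxd10 were at 0 in both Input libraries. Of these 9 genes 4 passed the filter, and 0 were called by edgeR or DESeq2 in the 6 comparisons. Of all genes, edgeR called 5.66% to 7.41% against Input and 0.0% against LacZ. In edgeR 1 had an unadjusted p under 0.05 in EVEN against Input, as did 18.8% of all genes. All 4 had estimates below Input in ODD, EVEN and LacZ, as did 52.9%, 50.1% and 54.5% of all genes.

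Foxp1 and Aldh1a2 mark the lateral motor column, whose neurons innervate the limbs. Foxp1, a forkhead transcription factor (ENSMUSG00000030067), lies on chromosome 6 of GRCm38 from 98925338 to 99522721 on the minus strand. Its level was 103 and 172 CPM in Input replicates 1 and 2, 86.9 and 129 with LacZ probes, 86.1 and 119 with ODD probes, and 82.1 and 119 with EVEN probes. Replicate 2 was the higher library in every group, and within each experiment all 3 pull-downs lay below Input. Aldh1a2 (ENSMUSG00000013584) occupies chromosome 9 from 71215789 to 71296243, plus strand. It stood at 9.63 and 7.49 CPM in Input, 9.14 and 7.12 with LacZ probes, 7.95 and 7.68 with ODD probes, and 11 and 9.60 with EVEN probes. The EVEN libraries were the highest of their own experiments. With both experiments pooled they lay above both LacZ and both ODD libraries, but their range overlapped that of Input.

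Mecom, a zinc finger transcription factor also known as Evi1, is used as a marker of the medial motor column, whose neurons innervate axial muscle. Mecom (ENSMUSG00000027684) occupies chromosome 3 from 29951296 to 30548008, minus strand. Its level was 15.6 and 6.42 CPM in Input, 14.7 and 7.82 with LacZ probes, 14.1 and 7.01 with ODD probes, and 13.6 and 5.92 with EVEN probes. The 4 libraries of replicate 1 all lay above the 4 of replicate 2, and the groups overlapped.

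Pou3f1 and Alcam are expressed by phrenic motor neurons, which innervate the diaphragm, and Pou3f1 also by some limb pools. Pou3f1, a POU domain transcription factor (ENSMUSG00000090125), is a gene on chromosome 4 from 124656807 to 124660655, plus strand. It stood at 15.6 and 32.0 CPM in Input, 10.3 and 17.2 with LacZ probes, 12.1 and 17.8 with ODD probes, and 11.7 and 16.1 with EVEN probes. Each pull-down library lay below the Input library of its own experiment, at 0.502 to 0.772 of it. Alcam, a cell adhesion molecule of the immunoglobulin family (ENSMUSG00000022636), occupies chromosome 16 from 52248996 to 52454074, minus strand. Its level was 90.8 and 129 CPM in Input, 57.4 and 103 with LacZ probes, 58.3 and 114 with ODD probes, and 59.9 and 110 with EVEN probes. It was likewise below Input in all 6 pull-down libraries, at 0.633 to 0.884 of the matching Input.

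Etv4, Nos1 and Ebf2 complete the set. Etv4, also called Pea3, is an ETS transcription factor of limb motor pools that is known to be induced by GDNF, which was in the medium of all groups. Etv4 (ENSMUSG00000017724) occupies chromosome 11 from 101769742 to 101785371, minus strand. It stood at 13.3 and 29.3 CPM in Input, 11.6 and 26.2 with LacZ probes, 11.6 and 27.7 with ODD probes, and 12.2 and 25.7 with EVEN probes. All 4 libraries of replicate 2 were above all 4 of replicate 1, and the pull-downs were between 0.873 and 0.946 of the matching Input.

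Nos1 is used as a marker of preganglionic motor neurons, which serve the autonomic ganglia. Nos1 (ENSMUSG00000029361) occupies chromosome 5 from 117781032 to 117958840, plus strand. Its level was 3.79 and 5.64 CPM in Input, 2.70 and 4.87 with LacZ probes, 2.73 and 3.46 with ODD probes, and 2.11 and 5.74 with EVEN probes. These values rest on 21 to 116 counts a library, the fewest of the 8 genes. Both ODD libraries lay below both Input libraries, and all other pairs of groups overlapped. Ebf2 (ENSMUSG00000022053), on chromosome 14 from 67233292 to 67430918, plus strand, encodes a transcription factor of the COE family. It stood at 31.0 and 24.3 CPM in Input, 28.5 and 23.7 with LacZ probes, 24.7 and 24.3 with ODD probes, and 25.9 and 21.6 with EVEN probes. It varied least of the 8 genes, with a highest library 1.43 times the lowest, while for Pou3f1 this ratio was 3.11.

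**Figure D2:**
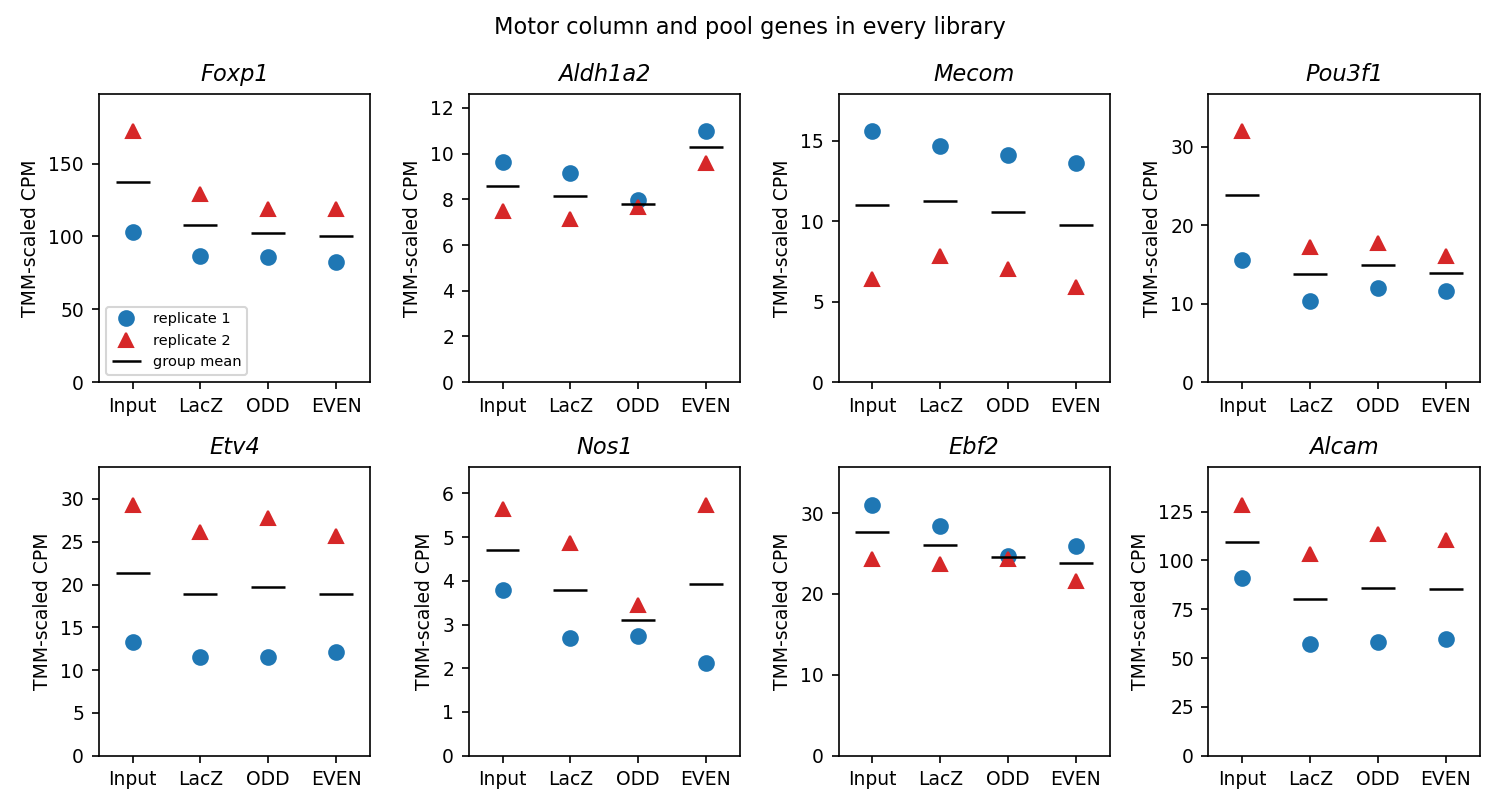
TMM-scaled CPM of each of the 8 genes (linear axes from 0) in Input, LacZ, ODD and EVEN, with a circle for replicate 1, a triangle for replicate 2 and a bar for the mean of the 2 libraries. Etv4, Foxp1, Pou3f1, Nos1 and Alcam are higher in replicate 2 in every group, and Mecom is lower.

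The study compared each pull-down with Input to find RNAs recovered with Lhx1os. None of the 8 genes passed the test in any pull-down against Input (edgeR, quasi-likelihood, Benjamini-Hochberg adjustment over 16524 genes, threshold 0.05), and none had an unadjusted p under 0.05, as 18.3%, 18.8% and 18.9% of all genes did in ODD, EVEN and LacZ. DESeq2 likewise called 0 of the 8. Over all genes tested, 6.84% were called in ODD against Input, 5.66% in EVEN against Input and 7.41% in LacZ against Input. The counts behind these shares, 1130, 935 and 1224 genes, fell to 108, 0 and 217 without Input replicate 1 and to 648, 412 and 811 without Input replicate 2. They were 740, 219 and 797 without replicate 1 of the pull-down compared, and 623, 593 and 487 without its replicate 2. The estimates for the 8 genes lay mostly below 0. In ODD 8 of 8 were below Input, and in EVEN and in LacZ 7 of 8 were, the exceptions being Aldh1a2 in EVEN and Mecom in LacZ. Of all genes tested, 52.9%, 50.1% and 54.5% were below Input in ODD, EVEN and LacZ. The 8 had median log2 fold changes of -0.26, -0.24 and -0.23 for ODD, EVEN and LacZ, beside -0.03, -0.0019 and -0.05 for all genes tested. The 3 comparisons share the same Input libraries.

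Pou3f1 was furthest below Input. Against Input, its log2 fold changes were -0.68 (SE 0.42, adjusted p = 0.486), -0.78 (SE 0.42, adjusted p = 0.396) and -0.78 (SE 0.43, adjusted p = 0.404) for ODD, EVEN and LacZ. The 2 experiments differed for this gene in every group, and that difference enters the spread of the test. When the replicate number was added as a block, Pou3f1 fell below Input in all 3 pull-downs. The blocked log2 fold changes were -0.62 (adjusted p = 0.0449), -0.72 (adjusted p = 0.0285) and -0.76 (adjusted p = 0.0235). The control probes thus gave the lowest of the 3 blocked values. In the blocked fit, 6.55% of all genes were called lower in ODD, 6.41% in EVEN and 7.0% in LacZ.

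Foxp1 and Alcam gave smaller estimates. Foxp1 had log2 fold changes of -0.43 (SE 0.34, adjusted p = 0.605), -0.45 (SE 0.34, adjusted p = 0.556) and -0.35 (SE 0.34, adjusted p = 0.686) in ODD, EVEN and LacZ. With the replicate block its call changed in EVEN alone (-0.43, adjusted p = 0.0383), while adjusted p was 0.0507 in ODD and 0.0853 in LacZ. Alcam had log2 fold changes of -0.35 (SE 0.45, adjusted p = 0.788), -0.36 (SE 0.45, adjusted p = 0.756) and -0.44 (SE 0.45, adjusted p = 0.705). With the block its call changed in LacZ alone (-0.49, adjusted p = 0.0450), against adjusted p of 0.0793 and 0.0751 with ODD and EVEN. The blocked fit thus called 1 of the 8 genes in ODD, 2 in EVEN and 2 in LacZ, all of them lower than Input. Markers of cell types were also called in that fit, in each of the 3 pull-downs. Of the 8 motor neuron genes Chat alone was called, and it rose (blocked log2 fold changes 0.81, 0.94 and 0.69 in ODD, EVEN and LacZ). In each pull-down 3 genes of that list lay below 0, and the list medians were 0.045, 0.014 and 0.021. Of the 6 progenitor genes 4, 4 and 5 lay below 0. Of the 3 glial genes that passed the filter 2, 2 and 3 did, and of the 6 such interneuron genes 5, 6 and 5. Of all genes, 53.6%, 50.9% and 55.4% lay below 0 in that fit. The progenitor genes Olig2 (-0.57, -0.59 and -0.58) and Nkx2-2 (-0.83, -0.79 and -0.83), the glial genes Sox10 (-0.65, -0.60 and -0.58) and Mbp (-0.44, -0.48 and -0.47), and the interneuron gene Gata3 (-0.73, -0.61 and -0.59) fell. Adjusted p was between 0.00246 and 0.0296 for these 6 called genes with edgeR, and 0 of them were called without the block. Their part in the values of the 8 genes was not tested.

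For the remaining genes the standard error was as large as the estimate or nearly so in most comparisons. Nos1 ranged from -0.61 (SE 0.53) in ODD to -0.26 (SE 0.52) in EVEN. Ebf2 ranged from -0.22 (SE 0.20) in EVEN to -0.09 (SE 0.20) in LacZ, and Etv4 from -0.17 (SE 0.63) in EVEN to -0.12 (SE 0.63) in ODD. Mecom lay between -0.17 (SE 0.61) in EVEN and 0.02 (SE 0.61) in LacZ. Aldh1a2 had 0.27 (SE 0.24) in EVEN and -0.13 (SE 0.25) in ODD. The block changed no call of these 5 genes. When single libraries were left out, the estimate of Pou3f1 kept its sign against Input in all 3 pull-downs, and that of Foxp1 in ODD and EVEN. Every other gene of the 8 turned sign in at least 1 of the 3 comparisons.

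**Figure D3:**
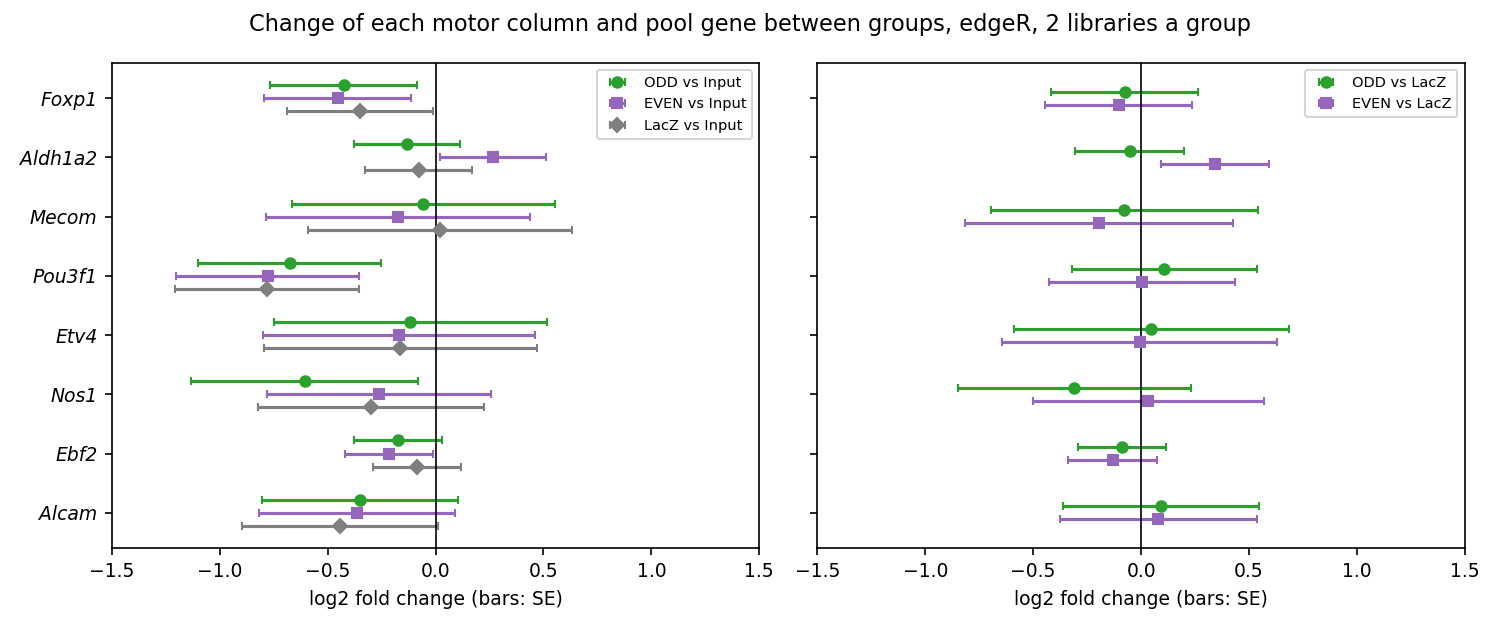
Log2 fold change of each of the 8 genes, with its standard error as a bar, for ODD, EVEN and LacZ against Input (left) and for ODD and EVEN against LacZ (right), from edgeR with 2 libraries a group. The estimates for Pou3f1, Foxp1, Alcam, Etv4, Nos1 and Ebf2 lie below 0 against Input with all 3 probe sets. Against LacZ the estimates of the 8 genes lie between -0.31 (Nos1 in ODD) and 0.34 (Aldh1a2 in EVEN).

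Against LacZ, the comparison that sets the Lhx1os probes beside control probes, the 8 genes stayed close to 0. The log2 fold change of the mean of ODD and EVEN ranged from -0.14 for Nos1 (SE 0.46) and Mecom (SE 0.54) to 0.15 for Aldh1a2 (SE 0.22). Adjusted p was 1.00 for each of the 8 genes in all 3 comparisons with LacZ, 0 of the 8 had an unadjusted p under 0.05, and DESeq2 called none. The background was 0.0% of genes called in ODD against LacZ, 0.0% in EVEN against LacZ and 0.0% with both probe sets averaged. At an unadjusted p under 0.05 there were 170, 283 and 218 genes (1.03%, 1.71% and 1.32%), and DESeq2 called 1, 13 and 2. Lhx1os itself, at log2 5.42 (SE 1.10) above LacZ for the mean of both probe sets, had an adjusted p of 1.00 as well.

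The ratios to LacZ within each experiment show how far single libraries lay apart. They carry no error of their own, and their range is no interval for the difference. With both probe sets averaged, the standard error of the log2 fold change against LacZ was 0.18 for Ebf2, the smallest, to 0.55 for Etv4, the largest. For Foxp1 the 4 ratios of a Lhx1os pull-down to the LacZ library of its experiment were between 0.922 and 0.991. Those of Etv4 were between 0.982 and 1.06, of Alcam between 1.02 and 1.10, and of Pou3f1 between 0.934 and 1.17. Ebf2 stood between 0.870 and 1.02, and Mecom between 0.758 and 0.964. The widest ranges were those of Nos1, from 0.710 to 1.18, and Aldh1a2, from 0.870 to 1.35. The 2 Aldh1a2 ratios of EVEN to LacZ were 1.2 and 1.35, and their log2 fold change in edgeR was 0.34 (SE 0.25, unadjusted p = 0.211).

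Because Lhx1os recovery differed between the experiments, the difference from LacZ was also compared between replicate 1 and replicate 2 within the pull-downs. This test was chosen after the data were seen. It called 0.169% of all genes, 28 in number, and none of the 8, whose adjusted p ranged from 0.866 for Pou3f1 to 0.986 for Etv4.

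A further 21 genes of motor columns and pools, among them LIM and Nkx6 transcription factors, guidance receptors and cadherins, were listed for comparison. All 21 passed the filter, and 0 were called by edgeR or DESeq2 in any of the 6 comparisons. At an unadjusted p under 0.05 edgeR had 1 of the 21 in each comparison with Input, a lower share than the 18.3% to 18.9% of all genes, and 0 in each with LacZ. Against Input their median log2 fold changes were -0.20, -0.20 and -0.16 for ODD, EVEN and LacZ. Below 0 were 15, 16 and 17 of the 21, beside 52.9%, 50.1% and 54.5% of all genes. The 4 most abundant in Input were Nkx6-1 (49.2 ± 2.8 FPKM), Tshz1 (35.2 ± 6.0), Isl1 (16.7 ± 8.6) and Fgfr1 (15.0 FPKM on average). Of the 13 paralogs that passed the filter, 0 were called by either tool, and 3, 1 and 3 had an unadjusted p under 0.05 in ODD, EVEN and LacZ against Input in edgeR, against 18.3%, 18.8% and 18.9% of all genes. With the block 3, 3 and 4 of the 13 paralogs were called lower in ODD, EVEN and LacZ. Of the 21 column and pool genes 1, 1 and 0 were, and of the 4 Hox genes that passed the filter 0, 1 and 0. The shares of all genes were 6.55%, 6.41% and 7.0%. Among the paralogs, the POU genes Pou3f2 and Pou3f4 fell below Input in all 3 pull-downs. Pou3f2 had blocked log2 fold changes of -0.50, -0.50 and -0.43 in ODD, EVEN and LacZ (adjusted p = 0.0241, 0.0249 and 0.0389). Those of Pou3f4 were -0.65, -0.47 and -0.56 (adjusted p = 0.00746, 0.0262 and 0.0129). Etv5 likewise fell in all 3 with the block (-0.46, -0.47 and -0.55; adjusted p = 0.0425, 0.0379 and 0.0219), and Mcam in LacZ (-0.58, adjusted p = 0.0388). Of the further column genes and Hox genes, the block added Gfra1, a GDNF co-receptor, in ODD and EVEN (-0.39 and -0.44; adjusted p = 0.0495 and 0.0352) and Hoxc5 in EVEN (-0.46, adjusted p = 0.0464). These counts depend on the treatment of GC content. With the block and each library's GC trend removed, 6, 7 and 6 of the 21 genes and 7, 7 and 6 of the 13 paralogs were called lower in ODD, EVEN and LacZ against Input, and 0 higher. In that fit 3, 4 and 3 of the 8 genes were called lower, beside 18.5%, 17.4% and 18.3% of all genes.

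Tshz1, a zinc finger gene of the hypaxial and phrenic columns, had the widest spread of the 4 most abundant. It stood at 30.9 and 39.4 FPKM in Input, 24.9 and 37.8 with LacZ probes, 107.8 and 33.4 with ODD probes, and 70.6 and 36.8 with EVEN probes. The ODD and EVEN libraries of replicate 1 stood above all others, and those of replicate 2 lay near LacZ. Tshz1 was 4.44 times LacZ in ODD and 2.90 times in EVEN in replicate 1, but 0.899 and 1.04 times in replicate 2. The difference between the experiments had a log2 value of -1.93 (SE 0.346, unadjusted p = 0.00122), with an adjusted p of 0.284 over all genes.

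Loci annotated within or across the 8 genes held few counts. Of 20 annotated genes that lie within one of the 8 or overlap it, 8 had any counts, and 2, both on the strand of Foxp1, passed the filter. Both were under the filter's minimum in the 2 Input libraries and over it in the 6 pull-down libraries. They passed through the groups where they were high, so their counts are given as a description with no test. Gm20705 (ENSMUSG00000093559) lies within introns of Foxp1, on chromosome 6 from 99384607 to 99388499, and shares no exon base with it. Its counts were 1 and 2 in Input, 21 and 46 with LacZ probes, 19 and 24 with ODD probes, and 26 and 18 with EVEN probes. Gm20696 (ENSMUSG00000030068), a gene on chromosome 6 from 99257484 to 99666797, shares 300 exon bases with Foxp1, so its reads may be divided between them. It had 14 and 7 counts in Input, 46 and 86 with LacZ probes, 62 and 80 with ODD probes, and 92 and 51 with EVEN probes. The counts with the LacZ control probes were of the same order as those with the Lhx1os probes.

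Within Mecom lie 5 loci of the TEC class, gene models that await experimental evidence, on its strand and sharing no exon with it. They summed to 1 and 1 counts in Input, 12 and 18 with LacZ probes, 16 and 11 with ODD probes, and 17 and 7 with EVEN probes. None of the 5 passed the filter. Loci on the opposite strand of the 8 genes held almost nothing: of 10, Gm2164 beside Pou3f1 was the 1 with counts, at most 3 in a library. The sources used here do not state whether counting used the strand.

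Because the study's title concerns low-complexity repeats in RNA pairing, the transcripts of the 8 genes were searched for such stretches and for runs shared with Lhx1os. Low-complexity sequence, as masked by dustmasker, made up 16.1% of the longest Pou3f1 transcript and 13.2% of that of Foxp1, above 99.2% and 98.3% of the genes tested. Alcam held 6.51%, Ebf2 3.17%, Mecom 3.11%, Nos1 1.64%, Etv4 0.459% and Aldh1a2 0.0%, beside a median of 2.20% over 16508 genes. Pou3f1 was also unusual in base composition, with 63.9% G and C, above 99.2% of genes, against 44.9% in Foxp1 and 44.0% in Alcam. The longest such stretch was 158 nt in Foxp1, 125 nt in Nos1, 118 nt in Alcam and 115 nt in Pou3f1. The part of each stretch with the longest perfect repeat of a unit of 1 to 3 bases is shown for the 3 genes with the most such sequence and for Nos1, which held the longest perfect repeat of the 8, with the repeat in capitals. They come from GENCODE release M21, are written 5′ to 3′ on the transcript's strand and are limited to 30 bases.
Foxp1, a CAG repeat, minus strand, chr6:99075963-99075992: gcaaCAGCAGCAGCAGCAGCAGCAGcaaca
Pou3f1, a CGG repeat, plus strand, chr4:124657497-124657526: ttgcaggcccCGGCGGCGGgcgggcacggg
Alcam, a TC repeat, minus strand, chr16:52249608-52249637: cttgtctctTCTCTCTCTCTCctttttctt
Nos1, the start of a TC repeat, plus strand, chr5:117956948-117956977: TCTCTCTCTCTCTCTCTCTCTCTCTCTCTC

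The Foxp1 repeat, of 7 copies, lies in a coding exon. That of Pou3f1, of 3 copies, lies in the 5′ UTR, and those of Alcam, of 6 copies, and Nos1, of 36 copies, lie in the 3′ UTR.

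The longest exact run shared with Lhx1os was 14 nt on the same strand, in Etv4, and 13 nt complementary to Lhx1os, in Foxp1. Runs as long were common: 14.2% of 16508 genes had a same-strand run of at least that length and 19.7% a complementary one. For the other 6 genes both kinds of run were 10 to 12 nt, around the median of 11 nt over all genes. The probes are 20 nt long, so no run of the 8 genes spans a whole probe. The longest run of each kind is shown, in capitals, with the bases around it.
Etv4, same strand as Lhx1os, across an exon junction, minus strand, chr11:101784316-101785126: acagacgcCCGGACCTCAGCAGaaatctcc
Foxp1, complementary to Lhx1os, minus strand, chr6:99006757-99006786: taatctgtCAACTGTCCCCACaacatacat

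Both runs lie in transcripts annotated as noncoding. Etv4 and Foxp1, which carry them, had ratios of Lhx1os probes to LacZ of 0.982 to 1.06 and 0.922 to 0.991. These ratios rest on counts per gene, over 12 annotated transcripts of Etv4 and 31 of Foxp1. They cannot show the recovery of the transcripts with the runs, which was not tested.

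For Etv4 and Mecom the 2 experiments differed more than the 4 groups did. Replicate 2 was above replicate 1 in all 4 groups for Etv4, Alcam, Foxp1, Pou3f1 and Nos1, 5 of the 8 genes, and below it in all 4 for Mecom, Aldh1a2 and Ebf2. Of 16340 genes with counts in every library, 24.7% were higher in all 4 groups and 21.1% lower. The 4 libraries of a replicate number belong to 1 experiment, so these ratios have no replicate check and are a description with no test. Etv4 was 2.21 times as high in Input of replicate 2 (95% exact interval for counting error 1.93 to 2.54), and between 2.11 and 2.4 times in the 4 groups. It was the 1 gene of the 8 past 2-fold upward in all 4 groups, as were 1.83% of all genes, and 0 were past 2-fold downward in all 4, as were 1.25%.

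Mecom came nearest to that in the other direction. Its ratio was 0.412 in Input (0.335 to 0.503) and at most 0.533, in LacZ. Pou3f1 had a ratio of 2.05 in Input (1.81 to 2.33) and 1.38 to 1.67 in the pull-downs, and Alcam 1.42 in Input (1.34 to 1.5) and 1.80 to 1.95 in the pull-downs. Foxp1 ranged from 1.38 to 1.67 and Nos1 from 1.27 to 2.72. Aldh1a2, with 0.778 to 0.965, and Ebf2, with 0.782 to 0.981, were the nearest to 1. Removing each library's trend on GC content left the direction of all 8 genes as it was, with mean log2 differences of 1.16 before and 1.17 after for Etv4, and -1.09 and -1.15 for Mecom.

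Markers of cell types moved with these differences. Of the 8 motor neuron genes, 6 were higher in replicate 2 in all 4 groups and 0 lower, with ratios in Input of 7.18 for Prph, an intermediate filament protein of motor axons, and 2.84 for Chat, the enzyme that makes acetylcholine. Mnx1, the gene whose promoter drives the reporter, was 1.43 times as high in Input and 0.926 to 0.939 times in the pull-downs. Of 6 progenitor genes, 5 were lower in replicate 2 in all 4 groups, among them Olig2 with 0.367 in Input. Of 5 glial genes, Sox10 and Mbp were lower in all 4 groups, at 0.235 and 0.156 in Input, while Aldh1l1 had ratios on both sides of 1 (0.671 to 1.07). Gfap and Aqp4, which did not pass the filter, had ratios of 3.55 and 1.35 in Input. The summed motor neuron level was 82.0 to 96.5 FPKM in the 4 libraries of replicate 1 and 242 to 271 in those of replicate 2. Prph carried most of that gap in each group: without it the sum was 60.1 to 67.2 and 99.7 to 111. Lhx3, like Mnx1, was higher in Input of replicate 2 (1.85 times) but not in every pull-down (0.940 to 1.01). The glial sum was 98.0 to 138 and 35.3 to 40.9 FPKM in replicates 1 and 2. The part of these cell types in the differences of Etv4, Mecom and the other genes was not tested.

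The other 21 column and pool genes also went both ways. In all 4 groups 9 were higher in replicate 2 and 8 lower, beside 24.7% and 21.1% of all genes. Past 2-fold upward in all 4, as were 1.83% of all genes, were Runx1, Sema3e and Met. Runx1 (2.71 to 4.24) is a factor of a subset of motor neurons and Sema3e (2.75 to 3.69) a guidance cue. Met (2.67 to 6.75) is the receptor for hepatocyte growth factor, and its highest ratio, in LacZ, rests on 12 counts in replicate 1. Etv1, a pool gene related to Etv4, went the opposite way to Etv4, with ratios of 0.340 to 0.396. It was past 2-fold downward in all 4, as were 1.25% of all genes. Isl1, a LIM factor of motor neurons, had 1.88 to 2.12, and Ret, the receptor through which GDNF acts, 1.41 to 1.86. Apart from Isl1, these genes were named after their ratios were seen.

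**Figure D4:**
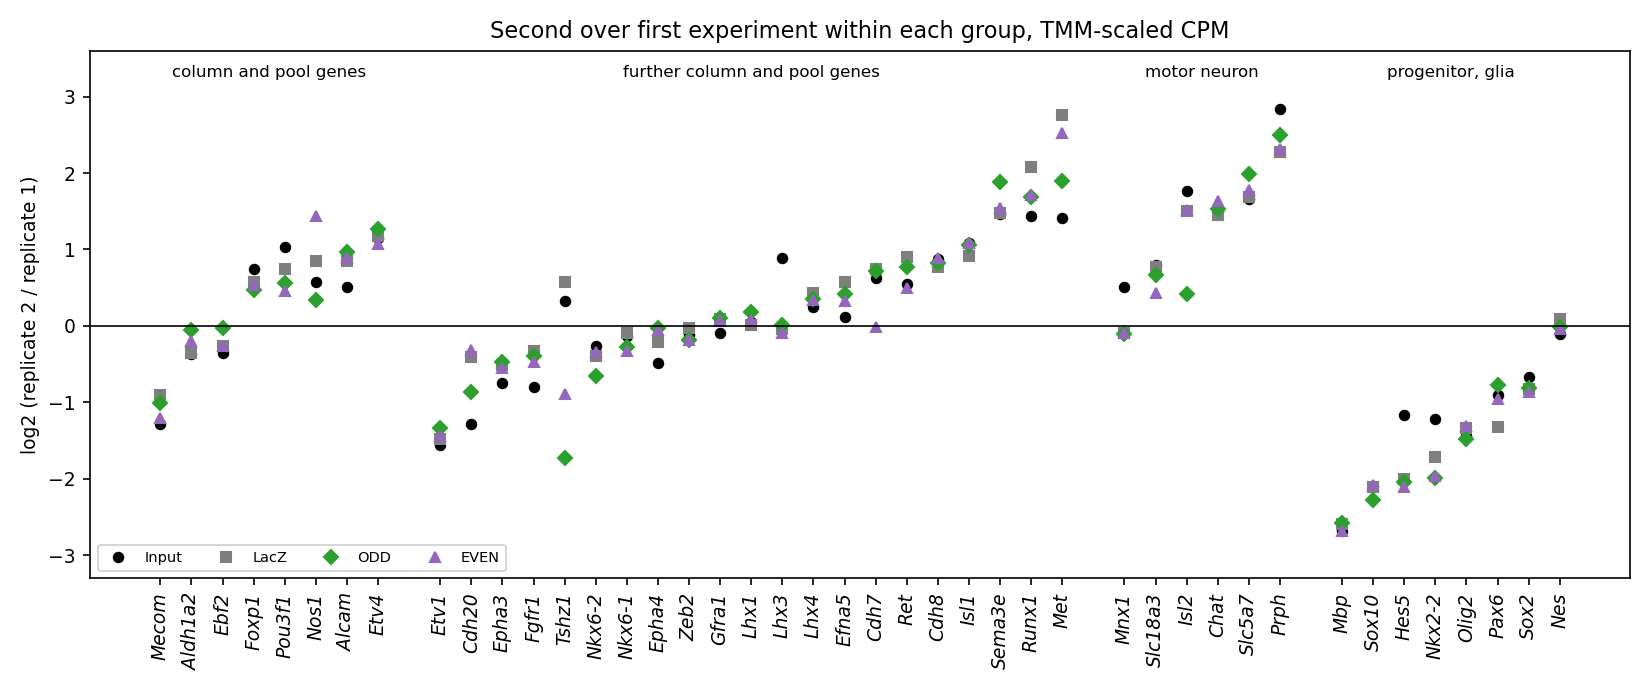
Log2 ratio of replicate 2 to replicate 1, from TMM-scaled CPM, in each of the 4 groups (symbols), for the 8 column and pool genes, 21 further such genes, motor neuron markers, and progenitor and glial markers, ordered by mean within each block. Etv4 and Prph lie above 0 and Mecom, Etv1, Sox10 and Mbp below 0 in every group, and Tshz1 is the gene whose groups differ most. Of the glial genes, Aldh1l1 (ratios of 0.671 to 1.07), Gfap (3.55 in Input) and Aqp4 (1.35 in Input) are not drawn.

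Genes with the most similar pattern over the 8 libraries were found by the root mean square difference of centred log2 CPM, among genes within 4-fold in mean level. For Etv4 these were Rftn1 (0.075) and Sp8 (0.082), beside a median of 0.619 over its 8463 candidates. For Foxp1 they were Nr2f2 (0.044) and Smad1 (0.049), with a median of 0.387. Pou3f1 was closest to Cend1 (0.075) and Kctd13 (0.098), and Alcam to Dnajc6 (0.060) and Adam19 (0.062), with medians of 0.507 and 0.482. Mecom lay nearest to Efs (0.086) and Rap1gap (0.11), where the median was 0.564. Nos1 was nearest to Il13ra1 (0.11) and Htr1b (0.12), Aldh1a2 to Akr1b10 (0.082) and Zfp952 (0.086), and Ebf2 to Sidt2 (0.047) and Lman2l (0.058). These distances rest on 8 libraries from 2 experiments, so genes that differ alike between the experiments come out close.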

How the data were processed

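Per the labels' protocols, a stranded total RNA kit with depletion of ribosomal RNA was used. The authors deposited whole-number counts per gene and FPKM values. The deposited FPKM equalled the count divided by gene length and by the column total (largest relative difference 6.64e-14), so both hold one measurement. Per the submitters' processing notes, cutadapt 3.2, Bowtie2 2.4.2, Picard, HTSeq 0.13.5 and the build GRCm38 were used. The sources used here give neither their roles nor the annotation or strand setting. Of 55471 identifiers, 55230 were found in GENCODE release M21, 99.1% of them with equal length, so positions and transcripts were taken from that release.

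Counts were tested with edgeR 4.0.16 (quasi-likelihood, TMM, default filter by group, all 8 libraries, 4 group means) in R 4.3.3, two-sided, with Benjamini-Hochberg adjustment. The test was also run on simulated counts, with larger changes than those of the 8 genes and no difference between experiments. It therefore says nothing about changes of their size. FPKM served for levels between genes and TMM-scaled CPM for levels between groups. Each Input ratio has an exact 95% interval. Intervals cover counting error only, since the reads carry no molecular identifiers. Low-complexity sequence was masked with dustmasker (BLAST+ 2.17.0) at level 20. Alternatives were the replicate block, the block with each library's GC trend removed (spline of 5 degrees of freedom), DESeq2 1.42.0, other scalings and filters, the compared groups alone and leaving out each library.

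The sample titles give replicate numbers and the series describes 2 independent experiments, so the numbers were taken to pair the libraries. The main test left this pairing out, and the replicate block takes it in. Deviations of same-numbered libraries correlated with r from 0.506 to 0.708 over the 6 pairs of groups. P-values of the fits without the block measure the spread between these 2 experiments. With the block, the difference between experiments shared by all groups is taken out, and p-values measure the spread that remains.

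The 8 genes and the lists were chosen with earlier results of these data known. The genes named were all 8, the list genes past the threshold (at most 4 a list), the 4 of each list highest in Input, the paralogs of each gene, loci within or across the 8 genes, and the 2 genes nearest in pattern. Genes named for a call with the block or for their ratio between experiments were chosen after their values were seen.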

Additional observations from a re-analysis of the deposited data

How the results depend on the processing

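Of the log2 fold changes of the 8 genes, 448 values over the alternatives kept direction and call, 15 gained a call and 49 turned sign. None of the signs that turned belonged to a called value. The 96 levels and 16 ratios of Input libraries kept their values within the replicate spread or the counting interval. With the replicate block, genes called against Input numbered 3169, 3182 and 3249 for ODD, EVEN and LacZ, and called genes of the 8 numbered 1, 2 and 2. The block's calls among the 8 genes, the lists and the cell type markers are given with the results. With the GC trend removed as well, 4797, 4545 and 4768 genes were called, and 3, 4 and 3 of the 8. These were Alcam, Foxp1 and Pou3f1 each time, with Ebf2 added in EVEN (-0.49, adjusted p = 0.0410). It moved the all-gene median to -0.16, -0.14 and -0.17, and higher against lower calls became 1743 against 3054, 1671 against 2874 and 1747 against 3021. Before it they were 1068 against 62, 888 against 47 and 1153 against 71, and with the block alone 2086 against 1083, 2123 against 1059 and 2092 against 1157. With no filter beyond 1 count (28192 genes) 2064, 1860 and 2118 genes were called, with 50 counts in 2 libraries (13320 genes) 535, 494 and 565, and with the compared groups alone 628, 445 and 757. DESeq2 called 1452 in EVEN against Input. Against LacZ, DESeq2 called 1, 13 and 2 genes in ODD, EVEN and their mean, and 75, 72 and 81 were called with no filter beyond 1 count.

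Leaving out each library in turn, with a lone library assumed to vary like the other groups, gave 108 to 900, 0 to 737 and 217 to 998 genes called against Input for ODD, EVEN and LacZ. Against LacZ it gave 0 to 7 in ODD and 0 to 5 in EVEN. Log2 fold changes in ODD against Input ranged from -0.30 to 0.059 for Aldh1a2, -0.65 to 0.72 for Mecom, -0.88 to 0.57 for Etv4, -0.34 to 0.012 for Ebf2 and -0.91 to 0.052 for Alcam. In EVEN they ranged from -0.90 to 0.60 for Mecom, -0.81 to 0.51 for Etv4, -1.15 to 0.29 for Nos1 and -0.87 to 0.011 for Alcam. In LacZ they ranged from -0.67 to 0.070 for Foxp1, -0.26 to 0.11 for Aldh1a2, -0.49 to 0.80 for Mecom, -0.88 to 0.52 for Etv4, -0.80 to 0.048 for Nos1 and -0.25 to 0.10 for Ebf2. With both probe sets averaged, the ranges against LacZ were -0.35 to 0.22 for Foxp1, -0.027 to 0.33 for Aldh1a2, -0.53 to 0.38 for Mecom and -0.26 to 0.48 for Pou3f1. They were -0.44 to 0.73 for Etv4, -0.58 to 0.36 for Nos1, -0.24 to 0.025 for Ebf2 and -0.27 to 0.58 for Alcam. Mecom also turned sign in ODD against Input with 50 counts in 2 libraries (0.0014), and in LacZ against Input with no filter beyond 1 count (-0.031) and with the GC trend removed (-0.14). Etv4 turned sign in the mean against LacZ with RLE size factors (-0.0030) and with total library size (-0.032). The cause of the turned signs was not tested. Nos1, with 21 to 116 counts a library, is the gene most limited by depth.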
